A study of Mus musculus with 6 samples.

Results

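The genes described here carry an Mrpl or Mrps name, which is given to proteins of the mitochondrial ribosome. They were chosen by name alone, as every row of the deposited table named Mrpl or Mrps followed by a number and at most 1 further letter from A to C. The rule found 77 of 48321 gene names, 48 of them Mrpl and 29 Mrps. The Mrpl genes encode proteins of the large subunit and the Mrps genes those of the small subunit, except that Mrps30 and Mrps18a sit in the large subunit and Mrps36 belongs to the oxoglutarate dehydrogenase complex. All 77 passed the filter on low values, an average of 0.5 or more CPM (counts scaled to library size) over the libraries used, so none was left untested.

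RNA was sequenced from isolated pancreatic islets of C57BL6 mice, all labelled wild type, on normal chow or on a high-fat diet with 60% of kcal from fat. High-fat feeding began at an age of 3 months and lasted 4 months. Neither the age and feeding time of the chow mice, nor the sex of the mice, nor whether a sample was 1 animal or a pool is given by the labels. The labels name 3 samples per diet, but chow replicate 2 turned out to hold the average of replicates 1 and 3 in 48321 of 48321 rows, so all comparisons used 2 chow and 3 high-fat libraries.

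Mitochondria have ribosomes of their own, which translate the few messages encoded by mitochondrial DNA, all of them for subunits of the respiratory chain and ATP synthase. Their proteins are encoded in the nucleus, made in the cytosol and imported, while their ribosomal RNA is made inside the organelle. In pancreatic beta cells the respiratory chain couples glucose metabolism to insulin release, which is why mitochondrial translation is of interest in islets on different diets.

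In a description by library, the steps between low values implied 18.8 to 35.1 M reads, and 3 reads were worth 0.0856 to 0.16 CPM. Beta cell markers, which define islets, summed to 57623 and 80115 CPM in chow and to 87653 to 95727 CPM in high-fat libraries. None of the 10 was at 0, 4 of them rose and 0 fell, and their median log2 difference was 0.47. Alpha cell markers summed to 2553 and 10665 CPM in chow and to 11553 to 13258 CPM in high-fat libraries, with 1 of 5 higher. Markers of acinar cells, the enzyme-making cells around the islets, summed to 69877 and 225444 CPM in chow and to 12957 to 110840 CPM in high-fat libraries. None of those 20 markers was at 0 or passed the test, but all 20 log2 differences were below 0, with a median of -1.52. Fibroblast markers summed to 95.8 and 191 CPM in chow against 24.6 to 53.1 CPM in high-fat libraries, and 5 of 5 fell; the part of these endocrine and fibroblast markers in the results on the members was not tested. Rn7sk, a short nuclear RNA without a poly(A) tail, stood at 6.27 and 13.3 CPM in chow and at 3192 to 3935 CPM in high-fat libraries, so diet and a difference in library type cannot be told apart in any result given here. In bulk islets, fewer cells of a type and less RNA per cell cannot be told apart either.

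Most mitoribosomal protein genes had similar levels on both diets. The summed CPM of the 48 Mrpl genes was 520 and 524 in chow and 542, 520 and 534 in high-fat libraries. For the 29 Mrps genes it was 288 and 292 in chow and 315, 297 and 304 in high-fat libraries. The Mrpl sums overlapped between diets, while the lowest high-fat Mrps sum lay above both chow sums by less than the spread among the high-fat libraries. The deposited columns did not have equal totals, with summed CPM from 674482 to 963615. As a share of that total, Mrpl took 0.0618% and 0.0777% in chow and 0.0562%, 0.0624% and 0.0607% in high-fat libraries, and Mrps took 0.0343% and 0.0433% in chow and 0.0327%, 0.0357% and 0.0346% in high-fat libraries. As shares both overlapped between the diets, and their means were lower on the high-fat diet. Of the 77 genes, 12 passed the test (limma, Benjamini-Hochberg adjusted p below 0.05 over 16939 genes), which is 15.6% against 23.7% of all genes tested. Of these 8 were higher on the high-fat diet, against 14.9% of all genes tested, and 4 were lower, against 8.78%.

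By subunit, 5 Mrpl genes rose and 3 fell, and 3 Mrps genes rose and 1 fell. The median log2 difference, high-fat minus chow on the log2(CPM + 1) scale, was 0.023 for Mrpl and 0.024 for Mrps, beside 0.053 for all genes tested. For 50 of the 77 (64.9%) the difference was under 0.25 in size, compared with 48.7% of all genes tested. The diets did not overlap in 35 of 77 (45.5%), against 55.4% of all genes. Among the genes for cytosolic ribosomal proteins, 14 rose and 18 fell of 80 tested (40%), and among nuclear-encoded respiratory chain subunits 12 rose and 9 fell of 77 (27.3%). These shares are descriptions, and the difference between the lists was not tested.

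**Figure D1:**
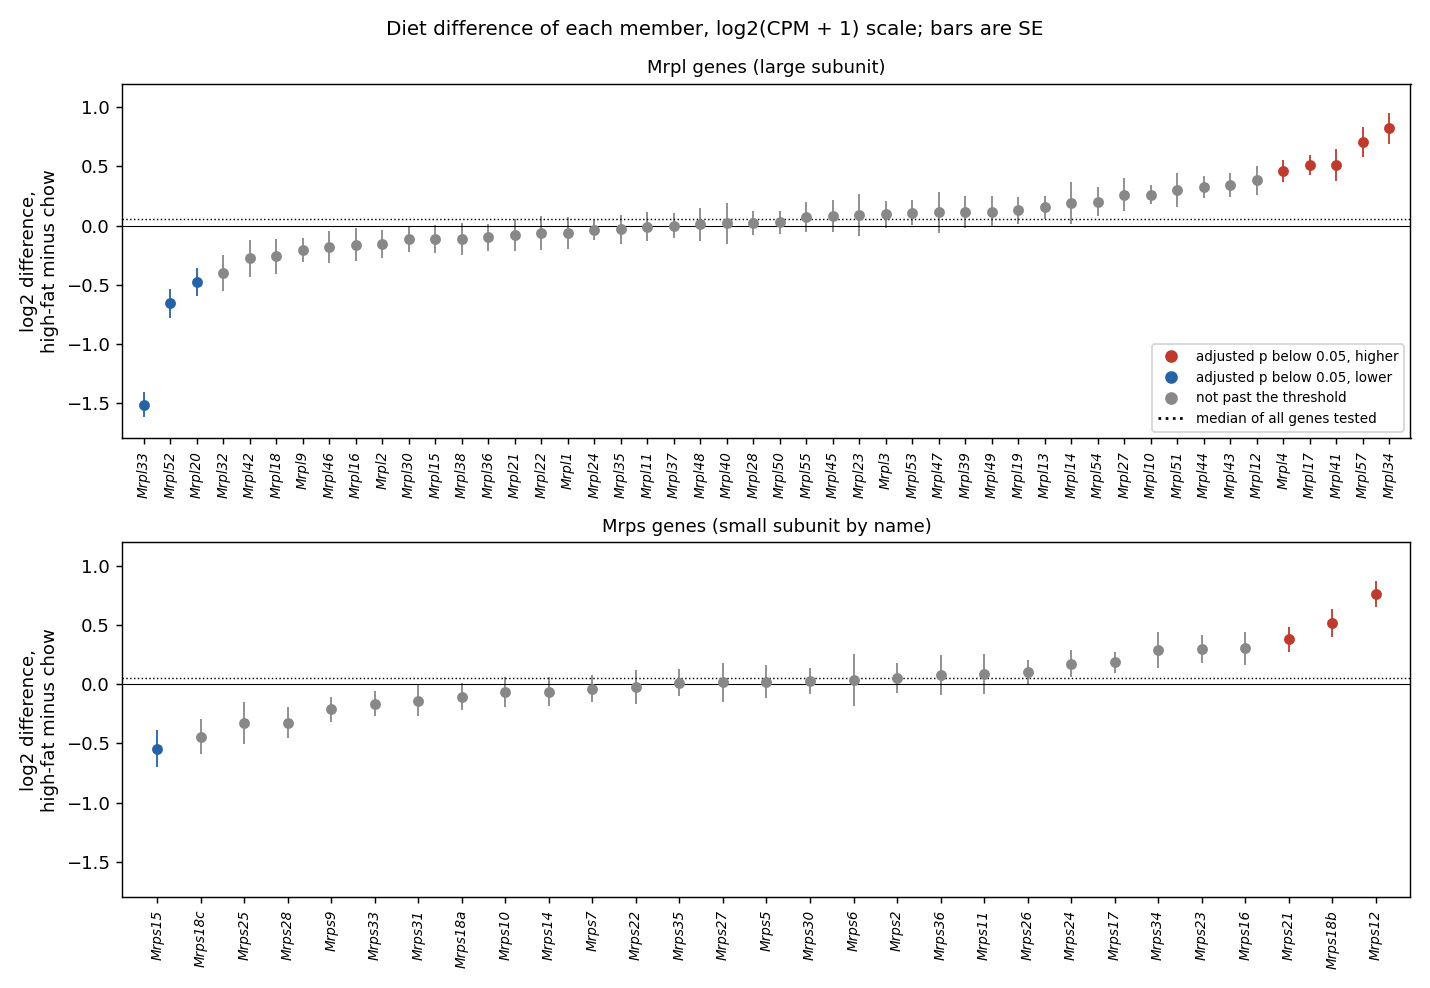
Log2 difference (high-fat minus chow, log2(CPM + 1) scale) with its standard error for each of the 77 genes, Mrpl and Mrps apart and ordered by size; colours mark the genes past the test. Most points lie close to 0, and Mrpl33 stands apart at -1.51.

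In the large subunit, Mrpl33 had the greatest difference of the 77. It encodes the counterpart of the bacterial protein bL33, one of the smallest proteins of the particle. Its level was 33.2 and 30.6 CPM in the chow libraries and 10.2, 11.5 and 9.91 CPM in the high-fat libraries. The diets were far from overlapping, and the chow mean was 3.03 times the high-fat mean. The log2 difference was -1.51 ± 0.11 (SE, adjusted p = 0.000195, limma). Mrpl33 made up 6.39% and 5.83% of the summed Mrpl CPM in chow and 1.88%, 2.22% and 1.86% in high-fat libraries.

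Mrpl34, the counterpart of the small bacterial protein bL34, moved the other way. Its level was 5.48 and 5.18 CPM in chow and 10.2, 9.10 and 11.4 CPM in high-fat libraries. Every high-fat library lay well above both chow libraries, and the log2 difference was 0.82 ± 0.13 (adjusted p = 0.00712, limma). Mrpl17, the counterpart of bL17, which lies near the exit of the tunnel for the nascent chain, stood at 17.5 and 16.7 CPM in chow. In the high-fat libraries it stood at 23.95, 25.1 and 25.2 CPM, a log2 difference of 0.51 ± 0.08 (adjusted p = 0.00794, limma). The 3 high-fat libraries were close together and the diets did not overlap.

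Mrpl4 encodes the counterpart of uL4, a protein that reaches into the wall of the exit tunnel. It was at 11.8 and 11.7 CPM in chow and at 17.2, 16.1 and 16.3 CPM in high-fat libraries, again without overlap (0.46 ± 0.09, adjusted p = 0.0155, limma). Mrpl20, whose bacterial counterpart bL20 acts early in assembly of the large subunit, fell. Its level was 10.1 and 11.3 CPM in chow and 7.88, 7.05 and 7.23 CPM in high-fat libraries, a log2 difference of -0.48 ± 0.12 (adjusted p = 0.0297, limma). All high-fat values lay below the chow values. Over the 30 large subunit genes with a bacterial counterpart, 3 rose, 2 fell and 25 did not pass, with a median log2 difference of -0.02.

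The remaining large subunit changes were in proteins that mitochondria have and bacteria lack. Mrpl57 was at 8.25 and 8.57 CPM in chow and at 13.2, 13.6 and 16.5 CPM in high-fat libraries (0.71 ± 0.13, adjusted p = 0.0100, limma). Mrpl41 was at 6.27 and 6.80 CPM in chow and at 9.70, 8.70 and 11 CPM in high-fat libraries (0.51 ± 0.13, adjusted p = 0.0338, limma). Both rose without overlap between the diets, with high-fat replicate 3 the highest for each. Mrpl52 fell from 8.24 and 8.18 CPM in chow to 4.64, 4.79 and 5.11 CPM in high-fat libraries (-0.66 ± 0.12, adjusted p = 0.0118, limma). The values within each diet were close together. Of the 18 genes of this kind, 2 rose, 1 fell and 15 did not pass, and the median log2 difference was 0.09.

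In the small subunit, Mrps12 had the greatest difference. It encodes the counterpart of uS12, which lies at the decoding centre and bears on the accuracy of translation. Its level was 10.7 and 10.2 CPM in chow and 19.1, 16.8 and 19.6 CPM in high-fat libraries. The lowest high-fat value was well above the highest chow value, and the log2 difference was 0.76 ± 0.11 (adjusted p = 0.00428, limma). Mrps21, the counterpart of bS21, was at 13.3 and 14.4 CPM in chow and at 18.8, 16.7 and 19.7 CPM in high-fat libraries (0.38 ± 0.11, adjusted p = 0.0424, limma). Mrps15, the counterpart of uS15, an rRNA-binding protein, was the 1 small subunit gene that fell. It stood at 8.93 and 6.85 CPM in chow and at 4.64, 5.59 and 4.98 CPM in high-fat libraries (-0.54 ± 0.16, adjusted p = 0.0444, limma). Neither of these genes had overlapping diets, but the 2 chow values of Mrps15 were further apart than the 3 high-fat values.

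Mrps18b encodes a relative of bS18 that has a place of its own in the small subunit. It was at 6.39 and 7.14 CPM in chow and at 9.63, 10.7 and 10.04 CPM in high-fat libraries (0.52 ± 0.12, adjusted p = 0.0223, limma). The diets did not overlap. Its relative Mrps18c, the counterpart of bS18, was at 4.91 and 5.1 CPM in chow and at 3.22, 3.10 and 3.99 CPM in high-fat libraries, a difference that did not pass the test (-0.44 ± 0.15, adjusted p = 0.0740, limma). Of 16 small subunit genes with a bacterial counterpart, 2 rose and 1 fell, and of 10 genes specific to mitochondria 1 rose and 0 fell. In the whole of limma's results 20 of the 77 members had an unadjusted p below 0.05, beside 6576 of the 16939 genes tested.

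**Figure D2:**
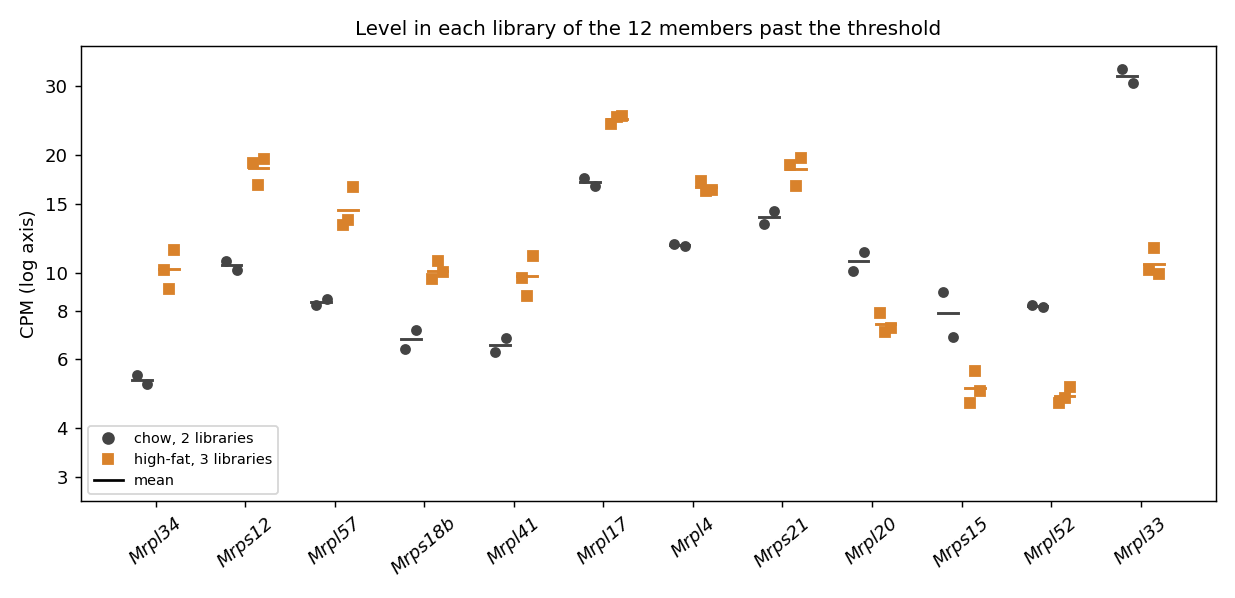
CPM in each of the 5 libraries (log axis) of the 12 genes past the test; circles are chow, squares high-fat, and lines the means. In all 12 the diets are separate, with the widest gap for Mrpl33.

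Several members lay just outside the threshold. Mrpl44, whose protein carries a ribonuclease III-like fold, was at 10.5 and 10.8 CPM in chow and at 13.3, 13.9 and 13.5 CPM in high-fat libraries (0.33 ± 0.10, adjusted p = 0.0501, limma). Mrpl10 and Mrpl12, which together form the stalk where translation factors bind, gave log2 differences of 0.26 ± 0.08 (adjusted p = 0.0612) and 0.38 ± 0.12 (adjusted p = 0.0617). Mrpl43 gave 0.34 ± 0.10 (adjusted p = 0.0538). In all 4 the high-fat values lay above the chow values. By size of difference, the next lower member of the large subunit was Mrpl32, at -0.40 ± 0.15 (adjusted p = 0.0983, limma). Mrpl32 encodes the counterpart of bL32, a protein that is cut by a mitochondrial protease before assembly. In the small subunit, after Mrps15 and Mrps18c, the next lower by size were Mrps25 and Mrps28. They gave -0.33 ± 0.18 (adjusted p = 0.219, limma) and -0.32 ± 0.13 (adjusted p = 0.122, limma). The next higher by size in the small subunit was Mrps16, at 0.31 ± 0.14 (adjusted p = 0.154, limma).

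The 12 calls were not equally firm. Among the processing alternatives counted below, the fit with all 6 columns put back the averaged chow column as if it were a separate library. All 12 passed there, but so did 41.8% of all genes tested, against 23.7% as reported. A pass in that fit therefore says little about firmness. Mrpl33, Mrpl34 and Mrps12 passed under all 15 alternatives tried, which included leaving out each library in turn. Mrpl52 did not pass without chow replicate 1 (adjusted p = 0.0526). Without any 1 library, Mrpl20 missed the threshold (adjusted p from 0.0595 to 0.0963), as did Mrpl41 (0.0553 to 0.127) and Mrps21 (0.0556 to 0.149). Mrps21 was the least firm, since it passed under 3 of the 15 alternatives and also missed the threshold with median-ratio scaling (0.0676), trimmed mean of M values (0.0636), no variance trend (0.0659) and length and GC trends removed (0.0612). Mrps18b passed under 7 and Mrps15 under 8 of the 10 processing alternatives, but neither passed when a high-fat library was left out. A fit without a chow library keeps 1 chow sample, so no call is read from it here for either gene. Without any 1 library, the log2 difference ranged from 0.45 to 0.59 for Mrps18b and from -0.71 to -0.37 for Mrps15. Mrpl4 missed it when a high-fat library was left out (0.0528 to 0.0578). Leaving out a library also leaves fewer samples in the fit. Without a filter on low values, which raises the number of genes tested, 7 of the 12 passed, and Mrpl20 (0.0634), Mrpl41 (0.0826), Mrps15 (0.108), Mrps18b (0.0508) and Mrps21 (0.0982) did not. With the acinar marker score as a covariate, 6 of the 12 passed, namely Mrpl33, Mrpl34, Mrpl17, Mrpl57, Mrpl52 and Mrps12.

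The scaling of the libraries bore on the direction. When CPM were divided by the summed CPM without acinar marker and insulin genes, the median of all genes moved to -0.33 and that of the 77 members to -0.39, so that 2 rose and 36 fell. On that scale Mrpl34 and Mrps12 were still higher and Mrpl33, Mrpl52, Mrpl20 and Mrps15 still lower, whereas Mrps21 gave -0.05. Mrpl57 (0.29, adjusted p = 0.126, limma), Mrpl41 (0.10, 0.577), Mrpl17 (0.069, 0.614) and Mrpl4 (0.031, 0.838) did not pass there, nor did Mrps18b. Measured from the all-gene median, the members' median was -0.03 as reported and -0.06 on that scale.

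**Figure D3:**
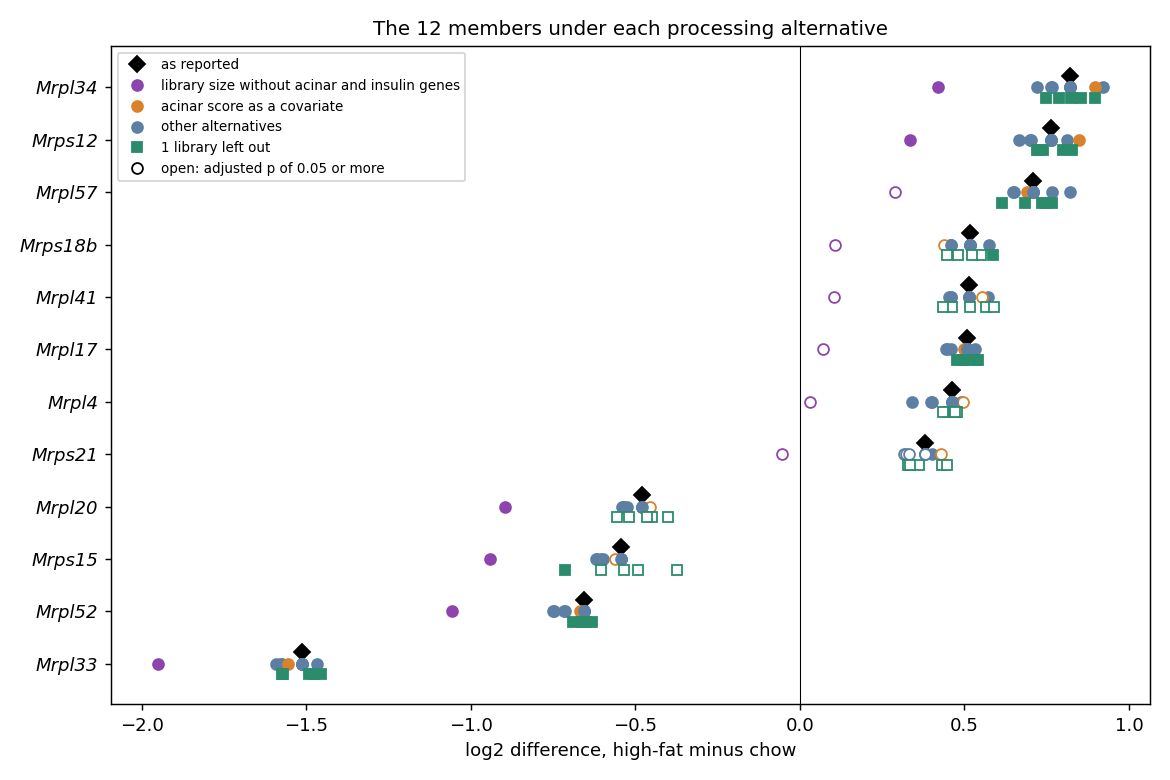
Log2 difference (high-fat minus chow) of the 12 genes as reported and under each alternative; open symbols have an adjusted p of 0.05 or more. Mrpl33, Mrpl34 and Mrps12 have filled symbols throughout, and a library size counted without acinar markers and insulin moves all 12 to lower values.

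The start regions of the 6 members with the smallest adjusted p are given here to set genes that rose beside genes that fell. The stretches come from RefSeq (GRCm38.p6), run 5′ to 3′ on the gene's strand, and cover 72 bases before and 12 bases after the annotated start. Capitals mark CCGGAAG, the core of the sites bound by ETS factors such as GABP, or GCATGCGC, the core of the NRF1 site, on either strand.
Mrpl33 (chr5:31613879-31613962, plus strand): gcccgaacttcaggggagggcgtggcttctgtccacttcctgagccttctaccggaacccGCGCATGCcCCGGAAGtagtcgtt
Mrpl52 (chr14:54426837-54426920, plus strand): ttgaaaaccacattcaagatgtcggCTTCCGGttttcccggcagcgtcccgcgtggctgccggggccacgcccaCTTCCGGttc
Mrps12 (chr7:28741810-28741893, minus strand): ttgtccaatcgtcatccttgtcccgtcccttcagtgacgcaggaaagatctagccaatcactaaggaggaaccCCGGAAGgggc
Mrpl34 (chr8:71464854-71464937, plus strand): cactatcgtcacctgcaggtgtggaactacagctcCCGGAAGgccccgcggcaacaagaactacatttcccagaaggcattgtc
Mrpl17 (chr7:105811076-105811159, minus strand): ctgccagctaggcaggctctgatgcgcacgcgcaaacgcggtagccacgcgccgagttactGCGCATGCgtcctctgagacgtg
Mrpl57 (chr14:57826167-57826250, plus strand): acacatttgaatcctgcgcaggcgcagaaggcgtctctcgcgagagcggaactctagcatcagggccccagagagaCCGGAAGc
Both factors are known regulators of nuclear genes for mitochondrial proteins. Mrpl33 and Mrpl52, which fell, and Mrps12, Mrpl34 and Mrpl57, which rose, each held the ETS letters in the printed stretch, and Mrpl33 and Mrpl17 held the NRF1 letters. The bases shortly after the RefSeq start of Mrpl34 were not found as an unbroken stretch in its GENCODE transcripts. Whether GENCODE places a start there was not tested.

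Windows of 300 bases, from 250 before to 50 after a RefSeq start, were present for 68 of the 77 members (74 windows). The ETS letters were in 33.8% of the members' windows, against 8.86% of all 32851 windows and 11.6% of 21262 windows of protein-coding genes. The NRF1 letters were in 10.8%, against 2.71% and 3.51%. A further motif, AAGATGGC, the core of the YY1 site, was in 16.2%, against 2.75% and 3.05%. No member window had 2 of these motifs overlapping each other. By diet response, the ETS letters were near the start of 6 of 7 genes that rose, 2 of 4 that fell and 17 of 57 that did not pass. A match of letters is a description of the window and was not tested for binding.

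Levels are compared between genes only as CPM per kilobase of the median annotated transcript length, as means over the libraries of a diet. Mrpl33, Mrpl30, Mrpl24 and Mrpl10 were the 4 highest of the large subunit over the 5 libraries. In chow, Mrpl33 was the highest of the large subunit at 66.8 CPM per kilobase, and in high-fat libraries it was second at 22.05, below Mrpl30, the counterpart of uL30, at 23.5. Mrpl24, the counterpart of uL24, was at 20.4 in chow and 19.8 in high-fat libraries, and Mrpl10 at 17.8 and 21.5. The lowest large subunit genes over the 5 libraries were Mrpl23, at 1.38 and 1.53, Mrpl35, at 1.71 and 1.67, and Mrpl32, at 2.16 and 1.56. Genes of one particle thus differed by over an order of magnitude in this measure. It rests on annotated lengths, and which transcripts the islets held was not tested.

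In the small subunit Mrps21 was the highest on both diets, at 31.04 CPM per kilobase in chow and 41.2 in high-fat libraries. Mrps33, a protein specific to mitochondria, was at 27.8 and 24.6, Mrps17, the counterpart of uS17, at 17.9 and 20.49, and Mrps12 at 13.03 and 23.02. Mrps12 moved from rank 6 in chow to rank 3 in high-fat libraries among the 29, and the diets did not overlap for it. The lowest were Mrps25, at 1.79 and 1.38, Mrps5, at 2.03 and 2.05, and Mrps35, at 2.15 and 2.17, and these 3 kept their order on both diets. Their annotated lengths were 6073, 4481 and 4162 bases, against a median of 1063.5 over Mrps. Before division by length their means over the 5 libraries were 9.40, 9.17 and 9.01 CPM, near the Mrps median of 9.40. Over the 77 genes Spearman's rho between the diets' levels per kilobase was 0.95, a description over genes of the same libraries.

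**Figure D4:**
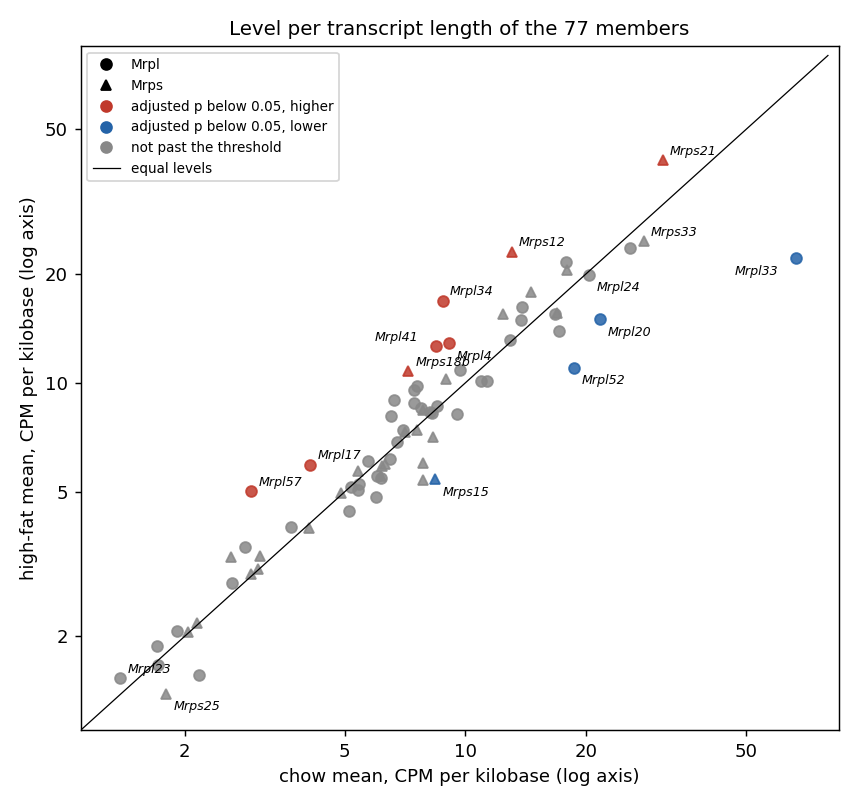
Mean CPM per kilobase of transcript in chow (x axis) and high-fat libraries (y axis), both log axes, for the 77 genes; the line marks equal levels. Most genes lie near the line, Mrpl33 lies furthest below it at 66.8 and 22.05, and Mrpl34 and Mrps12 lie above it.

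The sum over Mrpl divided by the sum over Mrps was 1.80 in both chow libraries and 1.72, 1.75 and 1.75 in the high-fat libraries. With the genes sorted by structure, Mrps30 and Mrps18a moved to the large subunit and Mrps36 left out, the ratio was 2.09 and 2.06 in chow and 1.97, 2.003 and 1.995 in high-fat libraries. Without Mrpl33, a choice made after its values were seen, the ratio of Mrpl to Mrps was 1.69 and 1.69 in chow and 1.69, 1.71 and 1.72 in high-fat libraries. The diets were separate with Mrpl33 and overlapped without it.

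The members' measured depth was modest. The lowest was Mrpl23, at 12 to 36 implied reads per library, and the median member had 187 to 353 reads. No member was at 0 in any library. The 2 chow libraries differed by a median of 0.12 log2 units over the members and by up to 0.57 (Mrps6), and the 3 high-fat libraries spanned a median of 0.18. The members' transcripts had a median length of 1223 bases, shorter than the 2780 bases of protein-coding genes tested, and a GC content of 50.1% against 50.8%. Spearman's rho of the log2 difference was 0.21 with GC content and 0.11 with length over the members, and 0.22 and 0.10 over protein-coding genes.

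Some member rows could hold reads of other genes, since no source used here gives the counting rule or its use of strand. Of the 31-base words of a member's transcripts, 84.4% for Mrpl53, 35.6% for Mrps34, 35.5% for Mrpl27, 32.8% for Mrps18c, 29.8% for Mrpl22, 21.1% for Mrpl41, 16.7% for Mrps18b, 14.5% for Mrps21 and 6.7% for Mrpl20 also occurred in another annotated gene. Exons on the opposite strand covered 69.8% of Mrps25 (Nr2c2), 63.4% of Mrps34 (Mapk8ip3), 36.0% of Mrpl19 (Gcfc2), 33.4% of Mrpl43 (Twnk) and 30.5% of Mrps18b. On the same strand, exons of another gene covered 88.0% of Mrpl53 (Gm42688), 37.0% of Mrps34 (Nme3) and 23.2% of Mrps18c (Gm43511), among others. For Mrpl33, Gm43809 covered 261 of 7326 exon bases on the same strand, and the median transcript of Mrpl33 has 478 bases. How far the 261 bases fall in that transcript was not tested. The values of all these genes are uncertain to that extent.

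A further 6 proteins of the mitoribosome bear other names. None passed the test with limma, and 3 had an unadjusted p below 0.05, beside 6576 of the 16939 genes tested. Ict1, a peptidyl-tRNA hydrolase built into the large subunit, had the greatest difference of the 6. It was at 11.4 and 9.07 CPM in chow and at 14.5, 13.04 and 13.7 CPM in high-fat libraries (0.39 ± 0.13, adjusted p = 0.0609, limma). The high-fat values of Ict1 lay above the chow values, and it passed without chow replicate 1 (adjusted p = 0.0420). Gadd45gip1, another large subunit protein, gave 0.35 ± 0.12 (adjusted p = 0.0747) and passed without chow replicate 3 (0.0356). The small subunit proteins Ptcd3, Chchd1, Aurkaip1 and Dap3 gave -0.27 (adjusted p = 0.0884), -0.23 (0.169), -0.17 (0.259) and -0.14 (0.474). Dap3, a GTP-binding protein of the small subunit head, was at 18.0 and 22.9 CPM in chow and at 16.5, 19.4 and 19.4 CPM in high-fat libraries, which overlapped.

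Factors that assemble the mitoribosome mostly did not pass, with 1 of 23 higher and 1 lower (8.70% called, against 23.7% of all genes tested). Mterf4, which guides an rRNA methyltransferase to the large subunit, fell from 18.6 and 12.3 CPM in chow to 9.82, 6.87 and 7.01 CPM in high-fat libraries (-0.87 ± 0.21, adjusted p = 0.0273, limma). Ngrn, which binds the large subunit rRNA, rose from 24.2 and 23.6 CPM to 29.3, 29.7 and 34.3 CPM (0.37 ± 0.10, adjusted p = 0.0366, limma). Neither gene's diets overlapped, though the chow values of Mterf4 were spread. With the acinar score as a covariate, or without a filter on low values, 0 of the 23 passed in either direction. Mterf4 missed the threshold without chow replicate 1, high-fat replicate 2 or high-fat replicate 3 (adjusted p from 0.0854 to 0.129), and Ngrn without any 1 library (0.0682 to 0.102). Of those 23, 7 had an unadjusted p below 0.05 with limma as reported, beside 6576 of the 16939 genes tested.

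Of 17 factors that act with the mitoribosome in translation, 4 fell and 0 rose (23.5% called, against 23.7% of all genes tested, 8.78% of them lower). Pdf, which removes the formyl group from the first residue of a new chain, was at 4.27 and 5.33 CPM in chow and at 2.61, 2.35 and 2.23 CPM in high-fat libraries (-0.77 ± 0.15, adjusted p = 0.0155, limma). Guf1, a translational GTPase related to bacterial EF4, was at 17.4 and 17.7 CPM in chow and at 8.06, 11.7 and 10.95 CPM in high-fat libraries (-0.74 ± 0.16, adjusted p = 0.0185, limma). Both had separate diets, with every high-fat value below the chow values. Oxa1l, which inserts new chains into the inner membrane, gave -0.35 ± 0.09 (adjusted p = 0.0371), and Metap1d, a mitochondrial methionine aminopeptidase, gave -0.33 ± 0.09 (adjusted p = 0.0465). Of the 4, only Guf1 passed with the acinar score as a covariate, and without a filter on low values none did (adjusted p from 0.0549 to 0.0848). Guf1 missed the threshold without chow replicate 1 (adjusted p = 0.0686). Pdf missed it without chow replicate 3, high-fat replicate 2 or high-fat replicate 3 (0.0543 to 0.0558), Oxa1l without any library but chow replicate 3 (0.079 to 0.136) and Metap1d without any 1 library (0.0854 to 0.127).

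Among 18 genes that maintain or express mitochondrial DNA, 4 rose and 1 fell (27.8% called, against 23.7% of all genes tested). Pnpt1, the polynucleotide phosphorylase that degrades mitochondrial RNA, rose most. Its level was 8.64 and 7.65 CPM in chow and 23.5, 24.01 and 21.99 CPM in high-fat libraries, 2.84 times the chow mean (1.40 ± 0.10, adjusted p = 0.000226, limma). Elac2, which trims the 3′ ends of tRNA precursors, Polrmt, the mitochondrial RNA polymerase, and Polg, the DNA polymerase, gave 0.43 ± 0.10 (adjusted p = 0.0220), 0.44 ± 0.11 (0.0254) and 0.38 ± 0.09 (0.0232). Grsf1, an RNA-binding protein of the granules where mitochondrial RNA is processed, fell from 90.3 and 89.4 CPM to 72.5, 73.5 and 71.7 CPM (-0.30 ± 0.07, adjusted p = 0.0269, limma). Tfam, which packages and helps to transcribe mitochondrial DNA, was at 20.1 CPM on average in chow and 18.7 in high-fat libraries (adjusted p = 0.513). Pnpt1 was the 1 gene of this list that still passed with the acinar score as a covariate. The other 4 missed the threshold without any library but chow replicate 3 (Elac2 0.0594 to 0.0779, Polg 0.0649 to 0.0807, Polrmt 0.0752 to 0.0982, Grsf1 0.061 to 0.0927). Without a filter on low values Pnpt1 and Elac2 passed. With a library size that omits acinar markers and insulin, 1 gene of this list was higher and 9 were lower. With length and GC trends removed, 1 was higher and 1 lower. The lowest log2 difference over the 10 alternatives was 0.004 for Elac2, 0.016 for Polrmt and -0.068 for Polg.

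Of 11 regulators of mitochondrial biogenesis, 1 rose and 1 fell (18.2% called, against 23.7% of all genes tested). Esrrg, an orphan nuclear receptor, was at 14.4 and 21.2 CPM in chow and at 37.8, 40.6 and 37.2 CPM in high-fat libraries (1.097 ± 0.154, adjusted p = 0.00432, limma). Yy1 was at 50.3 and 51.1 CPM in chow and at 41.5, 41.3 and 43.3 CPM in high-fat libraries (-0.27 ± 0.07, adjusted p = 0.0419, limma). Ppargc1a, a coactivator of such factors, was at 4.07 and 13.8 CPM in chow and at 13.2, 12.6 and 13.3 CPM in high-fat libraries. The chow libraries lay on either side of the high-fat ones, and the difference did not pass (0.70 ± 0.39, adjusted p = 0.232, limma). Without chow replicate 1 the difference of Ppargc1a was -0.075. Yy1 missed the threshold without any 1 library (adjusted p from 0.0718 to 0.134), nor did it pass without a filter on low values (0.0796).

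Many mitoribosomal genes share a start region with a neighbour read in the opposite direction. Such a protein-coding neighbour was looked for among the names of the deposited table. Its start had to lie at most 1000 bases away, or overlap by at most 200 bases. One was found for 23 of the 77 members, and 21 of these neighbours were tested. The share of all genes with such a neighbour was not computed. Of the 21, 5 rose and 0 fell, beside 14.9% higher and 8.78% lower among all genes tested. The sign was that of the member in 15 of the 21. Of all genes tested, 9474 of 16939 had a difference above 0. Mrps18b and Ppp1r10, a regulator of protein phosphatase 1, were the 1 pair in which both passed, and both rose. Ppp1r10 was at 61.5 and 65.8 CPM in chow and at 85.5, 98.4 and 86.2 CPM in high-fat libraries (0.49 ± 0.09, adjusted p = 0.0130, limma). Ppp1r10 passed under 7 of the 10 alternatives. Its misses included the acinar score as a covariate (adjusted p = 0.0552) and no filter on low values (0.0528). Over the 10 its lowest log2 difference was 0.036 and its highest adjusted p 0.830 (limma).

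Mrps12 shares its start region with Sars2, the mitochondrial seryl-tRNA synthetase, with 172 bases between the starts. Sars2 was at 2.51 and 2.51 CPM in chow and at 3.38, 3.83 and 3.36 CPM in high-fat libraries, a difference that did not pass (0.36 ± 0.14, adjusted p = 0.104, limma). Mrpl49 starts 59 bases from Fau, which encodes a cytosolic ribosomal protein fused to a ubiquitin-like one. Fau was at 5.66 and 6.02 CPM in chow and at 50.3, 53.8 and 50.2 CPM in high-fat libraries (2.94 ± 0.09, adjusted p = 2.20e-06, limma). Mrpl49 itself was at 11.9 and 11.9 CPM in chow and at 14.4, 11.05 and 13.9 CPM in high-fat libraries, which overlapped (0.12 ± 0.13, adjusted p = 0.549, limma). Mrps18c starts 29 bases from Helq, a DNA helicase, which was at 11.95 and 15.6 CPM in chow and at 30.6, 20.3 and 27.5 CPM in high-fat libraries (0.87 ± 0.19, adjusted p = 0.0187, limma). Helq rose while the fitted difference of Mrps18c was negative and did not pass. Helq missed the threshold without chow replicate 1, high-fat replicate 1 or high-fat replicate 3 (0.0537 to 0.0901), and without a filter on low values (0.0832). The row of Mrps18c is among those that share words with another gene. The neighbours named here were chosen after their values were seen.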

How the data were processed

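Islet RNA was prepared with Trizol, per the labels' protocols, and sequenced. The authors made the deposited table in Partek, as the submitters' processing notes record. No version, aligner, genome build, annotation, strand setting or library kit is named in any source used here. The header gave no unit, and the deposited values were read as CPM plus 1 from a lowest value of 1 and equal steps per column, so 1 was subtracted. Within a tolerance of 0.1, 64.5% to 69.9% of values up to 20 reads were whole, so reads were not recovered, depths are implied and intervals are not given. The averaged chow column was left out, and no sample is known to be a separate animal, so p-values cover only sample-to-sample spread, possibly technical.

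The test was limma (version 3.58.1, R version 4.3.3), applied to log2(CPM + 1), a pseudocount of 1, with a variance trend, for the 16939 genes averaging 0.5 CPM or more. On this scale the change of low genes is understated. P-values were adjusted by Benjamini-Hochberg over all genes, with a threshold of 0.05. The script was tested on simulated data. Members and lists were chosen with earlier results of these data known. Members are named where they passed, had the 4 greatest differences in each direction, or were the 4 highest or 3 lowest per kilobase of their subunit; listed related genes are named where they passed, along with a few set by name. Mrpl10, Mrpl12, Mrpl43 and Mrpl44, those next to the threshold, and Ict1 were named in addition after their values were seen. Names were matched to GENCODE M21 (46369 names, all 77 members), which gave lengths, GC content, overlaps and 31-base words. The 10 alternatives and the left-out libraries are given in the closing section.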

Additional observations from a re-analysis of the deposited data

How the results depend on the processing

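Each result was recomputed under 10 alternatives and without each of the 5 libraries. The counts of 5 Mrpl genes higher and 3 lower, and of 3 Mrps genes higher and 1 lower, depended most on the scaling and on the libraries used. With a library size that omits acinar markers and insulin they were 1, 23, 1 and 13, and with an acinar covariate 3, 2, 1 and 0. With all 6 columns, which counts the averaged chow column as a separate library, they were 9, 5, 6 and 4. Without a filter the Mrps counts were 1 and 0. Without 1 library the counts ranged from 3 to 4, 1 to 2, 1 to 2 and 0 to 1. The Mrpl median of 0.023 became -0.041 with median-ratio scaling, -0.037 with trimmed mean of M values, -0.404 with acinar markers and insulin omitted and 0.062 with the covariate, and ranged from -0.0027 to 0.070 without 1 library. The Mrps median of 0.024 became -0.037, -0.033 and -0.393 under the same scalings and ranged from -0.035 to 0.087 without 1 library. All genes shift with the scaling, from a median of 0.053 to -0.33 with acinar markers and insulin omitted. Members whose sign turned on that scale included Mrpl10 (-0.18), Mrpl12 (-0.035), Mrpl43 (-0.085), Mrpl44 (-0.10), Mrpl49 (-0.31), Mrps16 (-0.10) and Mrps21 (-0.053). Related genes that turned there included Gadd45gip1 (-0.084), Ict1 (-0.030), Ngrn (-0.080) and Polg (-0.068). These lists are not complete. Over the 10 alternatives, other members with a difference above 0 as reported also reached values below 0, such as Mrps23 (-0.14) and Mrps34 (-0.14). Leaving out a library turned the sign of further genes. Among them were Dap3 without chow replicate 3 (0.027, against -0.30 without chow replicate 1) and Ppargc1a without chow replicate 1 (-0.075, against 1.47 without chow replicate 3). Beyond the scaling and the fewer samples of the left-out fits, the cause of these changes was not tested. The lowest depth was that of Mrpl23, at 12 to 36 implied reads, and the size of difference that this depth can show was not tested. No paired analysis was possible because the labels give the diets no shared replicate numbers.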

Other observations

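Rows of pseudogenes with related names fall outside the naming rule and are given as values. Mrpl23-ps1 was at 9.07 and 8.31 CPM in chow and at 10.1, 8.87 and 8.61 CPM in high-fat libraries. The gene Mrpl23 was at 0.663 and 1.25 CPM in chow and at 1.05, 1.03 and 1.09 CPM in high-fat libraries. No lengths were applied, so the levels of the 2 rows are not compared. Of the 31-base words of Mrpl23, 10.3% also occurred in Mrpl23-ps1. Mrpl48-ps was at 4.44 and 6.10 CPM in chow and at 5.50, 6.32 and 7.28 CPM in high-fat libraries. Mrps36-ps1 was at 1.23 and 1.1 CPM in chow and at 0.455, 0.559 and 0.175 CPM in high-fat libraries. No source used here says how reads that match both a gene and its pseudogene were assigned.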
